A study of Mus musculus with 11 samples.

Results

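A set of 56 genes reached their highest level on day 1 when mouse embryonic stem cells were taken through 3 days of differentiation with RA (retinoic acid) and SAG, and was lower again on the next day. The genes were chosen from the measured values, out of 38197 genes in the deposited tables. In each of them the lower of the 2 day 1 values lay at least 1 log2 unit above the highest of the 6 values from days 0, 2 and 3. The day 1 mean was at least 2 on the log2 scale of CPM, the counts of a gene scaled to its library total. Hox genes and 7 named genes, most of them known retinoic acid targets, were set aside by name, which removed 3 further genes that met the level and the margin (Cyp26a1, Hoxb1 and Stra8).

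Polyadenylated RNA was sequenced from E14 stem cells, a wild-type line of strain 129 grown as a monolayer, with 2 libraries on day 0 and 2 at each of days 1, 2 and 3 of exposure to RA and SAG. A further 3 libraries were made after a sort on Prominin-1, which neural progenitors carry on their surface. These are called day 3.5 in most label fields and 3 days in another. All groups carry the same genotype, and the labels give RA and SAG as applied from day 0 to day 3. No untreated culture was carried through days 1 to 3 in these libraries, so a change after day 0 cannot be told apart from a change with time in culture.

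Retinoic acid is the active form of vitamin A. It enters the nucleus and binds retinoic acid receptors, which sit on DNA at direct repeats of a short motif. There they switch nearby genes on, among them genes for enzymes that destroy retinoic acid itself. SAG is a small molecule that activates Smoothened and so turns on the Hedgehog pathway. In the embryo both signals pattern the hindbrain and spinal cord, and in stem cell cultures they drive cells out of pluripotency towards neural progenitors.

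Library totals ran from 13173674 to 30384599 counts, and the 3 sorted libraries were the shallowest. Over days 0 to 3 a count of 3, the floor used here, corresponded to 0.0938 to 0.128 CPM, and in the sorted libraries to 0.179 to 0.221 CPM, which covers counting error only. The summed level of 13 naive pluripotency genes went from 821 and 1330 CPM on day 0 to 44.8 and 33.8 CPM on day 3. Prom1, the gene of the sorted protein, was at 262 and 214 CPM on day 3 and at 334, 281 and 284 CPM in the sorted libraries. Replicate 2 of day 0 and replicate 1 of day 1 stood apart from the other libraries of days 0 to 3 in base composition. Low-GC genes lay 0.92 and 0.87 log2 units above high-GC genes in them, against -0.59 to -0.01 in the other 6. Without replicate 2 of day 0 the rule found 80 genes, and without replicate 1 of day 1 it found 101, of which 56 and 55 were among the 56; without replicate 2 of day 1 it found 86. With an offset for each library's GC trend it found 63 genes, of which 47 were among the 56. On TMM-scaled log2 CPM, the scale of the levels printed below, it found 47 genes, of which 46 were among the 56, so that the other 10 did not meet the rule on that scale, Pls1 among them. The labels do not say that replicates came from separate cultures, so p-values measure the spread between these libraries, which may be technical.

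Upstream sequences of 5 of the genes are shown, because the results return to them: Aldh1a2 as the retinoic acid gene of the set, Cyp1a1 and Fbxo27 as genes that were below the stem cell level by day 2, Ms4a4d for its low level in the sorted cells, and Gm15055 as the noncoding RNA with the highest FPKM of the set. Each is the 250 bases before a RefSeq start site on GRCm38.p6, written 5′ to 3′ along the gene's strand. Capitals mark matches on either strand to the nuclear receptor motif AGGTCA, the GATA factor motif AGATAA, the box CCAAT (or its reverse), the box TATAAA and the octamer motif ATGCAAAT of the Oct factors.
Aldh1a2, chr9:71215539-71215788, plus strand: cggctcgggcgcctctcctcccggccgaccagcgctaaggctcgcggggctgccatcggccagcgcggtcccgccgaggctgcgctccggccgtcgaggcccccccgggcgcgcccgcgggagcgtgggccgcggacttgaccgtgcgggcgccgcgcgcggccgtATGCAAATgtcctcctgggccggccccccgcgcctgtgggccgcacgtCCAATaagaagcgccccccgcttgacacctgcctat
Cyp1a1, chr9:57697363-57697612, plus strand: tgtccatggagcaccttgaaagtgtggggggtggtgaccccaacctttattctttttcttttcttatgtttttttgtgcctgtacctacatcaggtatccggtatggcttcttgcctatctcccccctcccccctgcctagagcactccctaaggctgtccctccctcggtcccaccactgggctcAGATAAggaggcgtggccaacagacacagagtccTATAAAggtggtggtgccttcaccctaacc
Fbxo27, chr7:28692599-28692848, plus strand: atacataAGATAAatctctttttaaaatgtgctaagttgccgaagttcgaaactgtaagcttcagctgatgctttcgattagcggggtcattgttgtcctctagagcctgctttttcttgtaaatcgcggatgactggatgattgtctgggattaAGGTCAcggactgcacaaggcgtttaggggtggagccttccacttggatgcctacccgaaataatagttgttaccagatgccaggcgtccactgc
Ms4a4d, chr19:11536544-11536793, plus strand: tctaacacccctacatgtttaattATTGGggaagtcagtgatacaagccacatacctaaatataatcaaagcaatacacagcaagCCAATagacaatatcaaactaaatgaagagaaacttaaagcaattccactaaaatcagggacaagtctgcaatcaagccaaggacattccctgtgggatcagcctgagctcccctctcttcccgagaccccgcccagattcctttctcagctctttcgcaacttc
Gm15055, chr6:52102699-52102948, plus strand: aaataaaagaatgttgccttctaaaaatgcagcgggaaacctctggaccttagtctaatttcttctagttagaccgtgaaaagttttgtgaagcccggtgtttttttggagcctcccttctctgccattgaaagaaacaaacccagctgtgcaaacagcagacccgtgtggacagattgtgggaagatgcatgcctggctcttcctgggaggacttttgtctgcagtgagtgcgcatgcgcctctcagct

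Within the set the margin ran from 1.0 to 2.74 log2 units with a median of 1.33, and day 1 means ran from 3.92 to 304 CPM with a median of 8.76. The day 1 mean was between 1.99 and 13.6 times the day 0 mean, with a median of 3.23. In 32 genes the highest value outside day 1 came from day 0, in 21 from day 2 and in 3 from day 3. Because the rule used these values, they describe the choice and are not tests. On that footing, edgeR's quasi-likelihood test placed 50 of the 56 above day 0 on day 1, where 12.0% of all 16810 genes tested were called higher, and all 56 below day 1 on day 2, where 9.99% of all genes were called lower. The latter count became 24 without replicate 1 of day 2. Just inside the margin stood Susd5 (1.0), Pls1 (1.001) and Nos1 (1.011), and just outside it Nrip3 (0.999), Gstt3 (0.996) and Plce1 (0.99). Just inside the level stood Mall (2.004), Tlr3 (2.042) and H2-Q2 (2.076), and just outside it Calr4 (1.999), Padi2 (1.929) and Akr1c19 (1.909). In the deposited FPKM, which are scaled by transcript length, both day 1 values of all 56 genes again lay above every value of days 0, 2 and 3, and in 46 genes by at least 2 times.

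**Figure D1:**
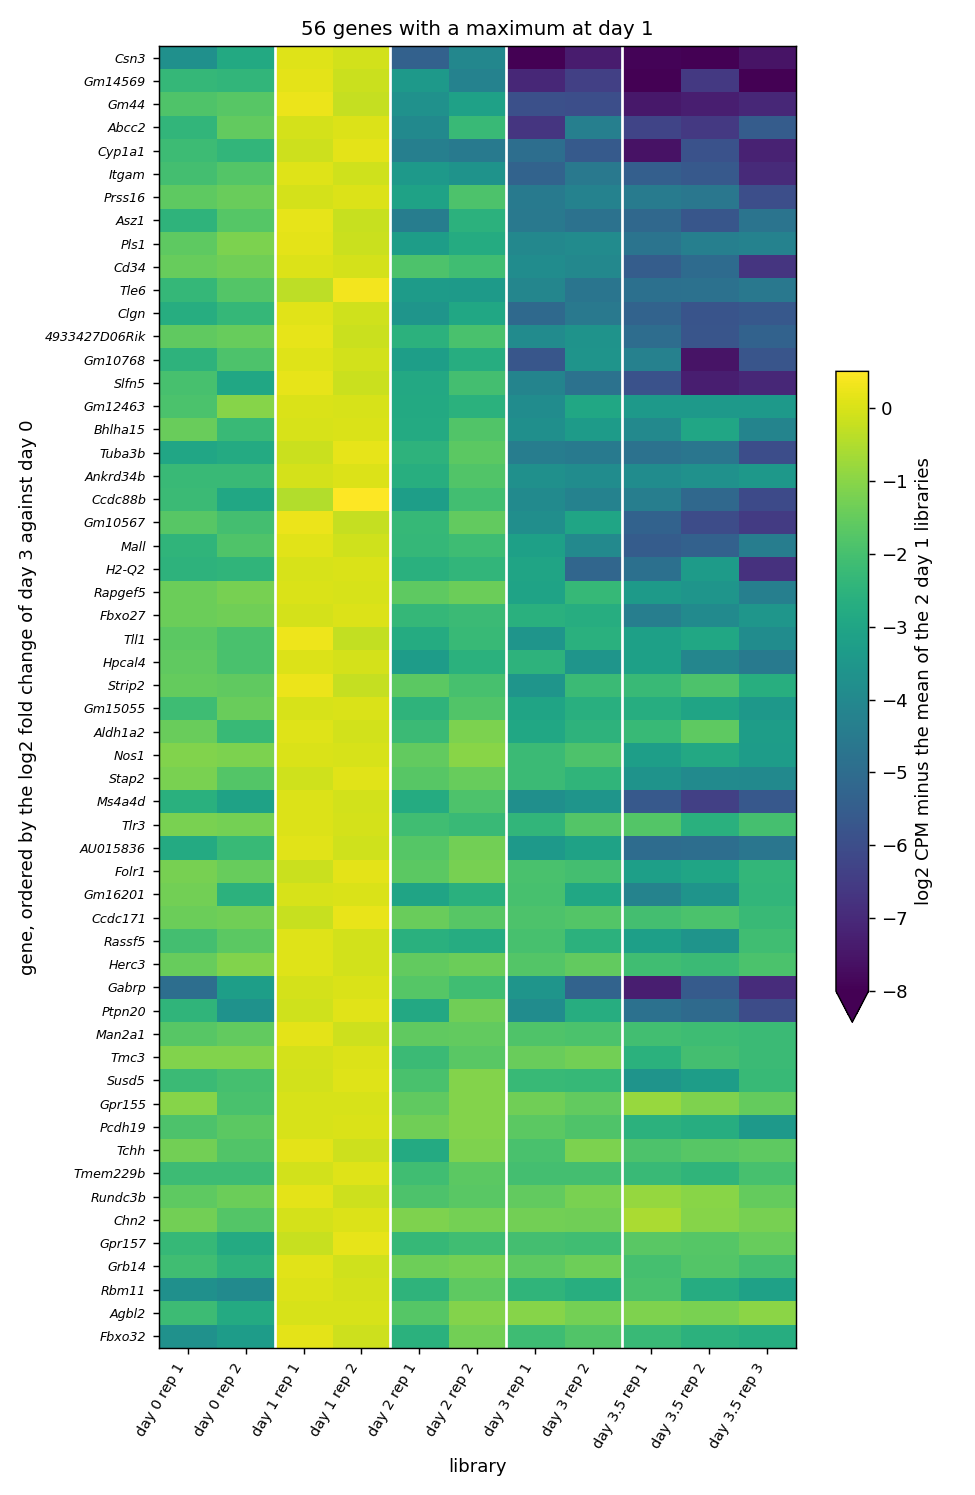
Deposited log2 CPM of the 56 genes (rows) in the 11 libraries (columns), each given relative to the mean of its 2 day 1 libraries, with values below -8 drawn in the darkest colour. The day 1 columns are brightest by construction, and in the rows at the top, which were lowest on day 3 relative to day 0, the later columns are darker than day 0.

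The rule capped days 0, 2 and 3 alike and did not use their order, so the level left after the peak could be compared with the stem cell level. By day 3 most of the set had gone below where it started. Against day 0, 33 of 56 genes were lower on day 3 (26.3% of all genes tested were called lower) and 2 were higher (27.6% of all genes), while 21 did not pass the test in edgeR at an adjusted p of 0.05. The median log2 fold change was -1.29 over the set and 0.02 over all genes tested. In 42 genes both day 3 values lay below both day 0 values, against 38.0% of all genes, and in 5 both lay above, against 39.5%. At day 2, 1 day after the peak, 11 genes were lower than on day 0 (20.1% of all genes), 4 were higher (21.3%), 41 did not pass, and the median was -0.31 against 0.02 over all genes. Both day 2 values lay below both day 0 values in 25 genes (37.1% of all genes) and above them in 8 (38.5%). Of the 33 lower calls on day 3, 19 remained when each library was left out in turn, and 12 remained under every alternative setting in which the gene was tested. Those 12 were 4933427D06Rik, Cd34, Clgn, Csn3, Fbxo27, Gm12463, Gm14569, Gm44, Pls1, Rapgef5, Tle6 and Tuba3b. Of the 11 lower calls on day 2, 4 remained without replicate 1 of day 2, 6 without replicate 2 of day 2 and 6 without replicate 2 of day 0, and 3 (Cyp1a1, Itgam and Pls1) remained without each library in turn. The 4 higher calls on day 2 became 0 without replicate 2 of day 2, 1 without replicate 1 of day 0 and 2 without replicate 1 of day 2. The 2 higher calls on day 3 became 0 without replicate 2 of day 3 and 1 without replicate 1 of day 3 or either day 0 library.

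**Figure D2:**
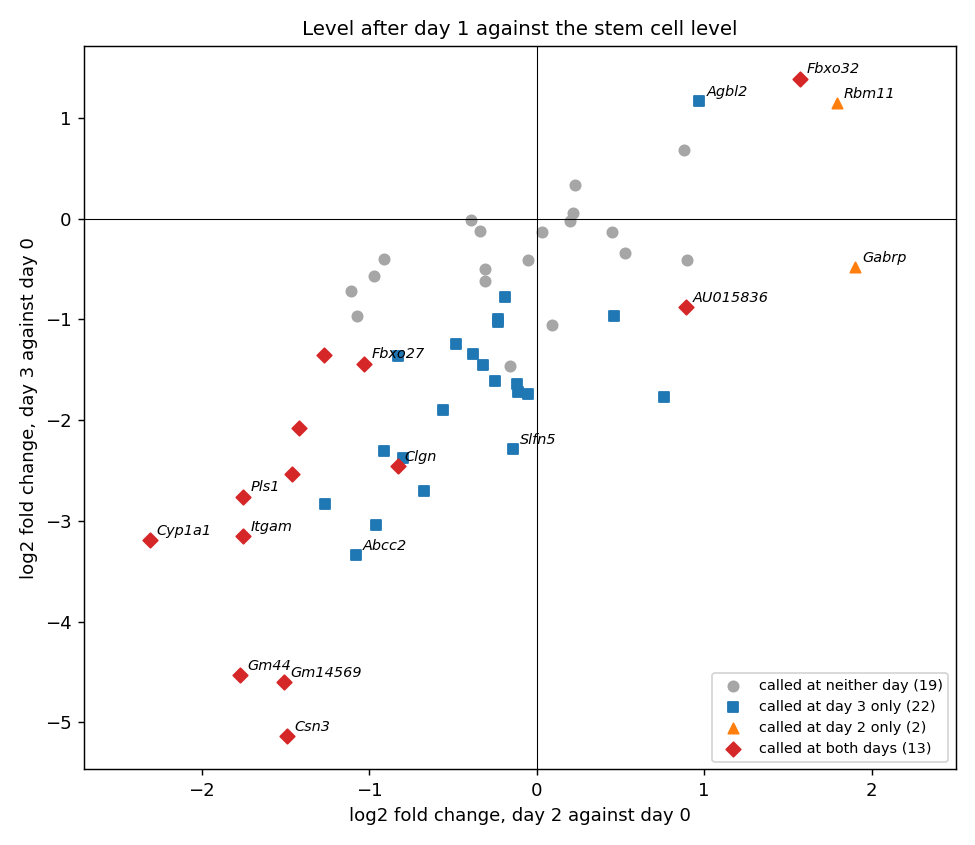
Log2 fold change of each of the 56 genes on day 2 (x axis) and day 3 (y axis) against day 0, from edgeR; both share the day 0 libraries. Symbols show at which day the gene passed an adjusted p of 0.05: 13 at both days, 22 on day 3 alone, 2 on day 2 alone and 19 at neither.

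The genes are described below by role. The lower calls on day 3 given for each role are parts of the 33 of 56 over the set, and no role was tested against the others. The roles were assigned after the values were seen, as an order of presentation, and so were the genes named beyond the rule given with the processing, which were added to account for the whole set. Unless another scale is named, a level is the TMM-scaled CPM of a library, and a difference is an edgeR log2 fold change. The value after ± stands in for a standard error. It is the absolute log2 fold change divided by the square root of the quasi-likelihood F statistic.

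Retinoic acid synthesis, detoxification and folate uptake were each represented by a gene, and 3 of the 4 genes of this kind were lower on day 3 than on day 0, a call made in 26.3% of all genes tested. Aldh1a2 encodes the enzyme that makes retinoic acid from retinaldehyde. It was at 2.65 and 1.58 CPM on day 0, 7.43 and 6.22 on day 1, 1.49 and 3.02 on day 2, and 0.849 and 1.20 on day 3. The day 2 values lie on both sides of the day 0 values, and neither day 2 (0.09 ± 0.43, adjusted p = 0.889) nor day 3 (-1.05 ± 0.45, adjusted p = 0.0769) passed the test against day 0. Cyp1a1 encodes a cytochrome P450 that oxidises foreign compounds and is the classic target of the aryl hydrocarbon receptor. Its level was 1.26 and 1.16 CPM on day 0, 5.05 and 5.82 on day 1, 0.260 and 0.218 on day 2, and 0.157 and 0.0975 on day 3, so every later library was below both stem cell libraries. Cyp1a1 fell by 2.31 ± 0.44 on day 2 (adjusted p = 0.00307) and by 3.19 ± 0.47 on day 3 (adjusted p = 0.000492) on the log2 scale. These levels rest on 7 and 6 counts on day 2 and on 5 and 3 counts on day 3. Other genes tied to the same receptor, looked up after these values were seen, went different ways. Ahrr was also highest on day 1, with 1.16 and 1.07 CPM on day 0 and 2.27 and 2.38 on day 1, for a margin of 0.47, but it was not called in any comparison. Tiparp was at 135 and 178 CPM on day 0 and 141 and 102 on day 1. Cyp1b1 had its highest values on day 2, 145 and 155 CPM. Ahr, the receptor gene, was at 12.7 and 15.0 CPM on day 0 and 13.2 and 10.5 on day 1. Nqo1 was at 47.7 and 75.3 CPM on day 0 and 61.6 and 53.9 on day 1. Neither gene was called on day 1 against day 0. Both were lower than on day 0 on day 2 (20.1% of all genes) and on day 3 (26.3%).

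Folr1, the folate receptor whose loss in mice prevents neural tube closure, had the highest FPKM of the set on day 1, with a mean of 199. In CPM it was at 61.1 and 57.5 on day 0, at a mean of 138 on day 1 (the second library at 149), at 45.4 and 58.5 on day 2, and 35.3 and 33.6 on day 3. Both day 3 values lay below both day 0 values, and it fell by 0.78 ± 0.18 from day 0 to day 3 (adjusted p = 0.00493). Folr2, a paralog 1137 bases away, followed at a far lower level, with 0.918 and 0.985 CPM on day 0, 2.16 and 3.75 on day 1 and 1.04 and 0.982 on day 2, and missed the margin at 0.73. Abcc2, an efflux pump of the liver and gut, went from 2.99 and 5.95 CPM on day 0 to 15.3 and 15.1 on day 1 and 0.126 and 0.748 on day 3 (log2 fold change of day 3 against day 0 -3.34 ± 0.76, adjusted p = 0.00506). The long noncoding RNA Gm10768 is annotated 470 bases past the RefSeq end of Abcc2 and inside the longer GENCODE model of that gene, so reads of Gm10768 and Abcc2 cannot be told apart where the models overlap.

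Csn3, the milk protein kappa-casein, had the widest margin of the set at 2.74 log2 units. It was at 2.72 and 5.57 CPM on day 0, 37.7 and 31.3 on day 1, 0.855 and 2.07 on day 2, and 0.0315 and 0.195 on day 3. Both day 3 values lay below both day 2 values, and against day 0 the difference was -5.14 ± 0.70 on day 3 (adjusted p = 0.000333). The day 3 values rest on 1 and 6 counts, the first of them under the floor of 3. At day 2 the difference was -1.49 ± 0.51 (adjusted p = 0.0445), and that call was lost without replicate 2 of day 0 (adjusted p = 0.251) and without replicate 1 of day 2 (adjusted p = 0.239). Man2a1 encodes a Golgi mannosidase that trims N-linked sugars and had the highest CPM of the set. Its values were 98.3 and 119 on day 0, 345 and 262 on day 1, 105 in both libraries on day 2 and 81.6 in both on day 3. Day 2 lay within the day 0 range and day 3 below it, and neither passed the test, on day 2 (-0.05 ± 0.17, adjusted p = 0.843) or on day 3 (-0.41 ± 0.17, adjusted p = 0.0712). Tll1, a secreted tolloid-family protease that processes procollagen, was at 4.90 and 4.37 CPM on day 0, 18.5 and 11.4 on day 1 and 1.20 and 2.41 on day 3. Its lower call on day 3 (adjusted p = 0.0187) was lost without replicate 1 of day 0 (0.0525) and without replicate 1 of day 3 (0.127).

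All 4 genes best known from germ cells were lower on day 3 than on day 0 (26.3% of all genes tested), and 2 of them already on day 2 (20.1%). Clgn encodes calmegin, an endoplasmic reticulum chaperone needed for fertile sperm. It was at 35.8 and 49.0 CPM on day 0, 242 and 195 on day 1, 19.0 and 28.7 on day 2, and 6.16 and 9.20 on day 3. The levels of the 4 days did not overlap, and Clgn fell by 2.46 ± 0.29 from day 0 to day 3 (adjusted p = 0.000136). The day 2 call (adjusted p = 0.0361) was lost without replicate 2 of day 0 (0.189) and without replicate 1 of day 2 (0.215). Tle6, a part of the maternal complex beneath the egg membrane, was at 4.35 and 7.02 CPM on day 0, 16.8 and 25.5 on day 1, 2.12 and 2.00 on day 2, and 1.16 and 0.780 on day 3. Tle6 fell by 2.53 ± 0.38 by day 3 (adjusted p = 0.000541), and its day 2 call (0.0108) was lost without replicate 2 of day 0 (0.0648), replicate 1 of day 2 (0.0612) or replicate 2 of day 2 (0.0747). Asz1, a protein of the piRNA pathway that guards the germline against transposons, went from 0.918 and 1.67 CPM on day 0 to 5.85 and 4.13 on day 1 and 0.189 and 0.163 on day 3. Tuba3b, an alpha-tubulin of the testis, went from 0.952 and 1.16 CPM to 6.53 and 7.75 and then to 0.315 and 0.293 at the same days. Reads of Tuba3b could be shared with its near copy Tuba3a, which was at 11.7 and 15.6 CPM on day 0 and 17.6 and 28.0 on day 1.

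A list of 30 germline and meiosis markers was set beside these genes, and none of its genes was a member. Of 28 tested, 4 were higher and 3 lower on day 1 than on day 0, shares near those of all genes (12.0% and 8.91%). On day 3, 20 were lower and 2 higher than on day 0, against 26.3% and 27.6% of all genes. The summed level of the list was 461 and 739 CPM on day 0, 721 and 620 on day 1, 244 and 299 on day 2, and 204 and 208 on day 3. The part of germline-like cells in the values above was not tested. In 13 of the 29 list genes found in the tables the highest mean was on day 1, a share that was not worked out over all genes. Tex101, a germ cell surface protein, had a margin of 2.24 but missed the level, with 0.974 and 0.750 CPM on day 1. Kit, the receptor that germ cells need to survive, was at 52.5 and 74.7 CPM on day 0, 158 and 148 on day 1 and 80.9 and 72.0 on day 2, for a margin of 0.73. Tex101 and Kit do not stand for the list, in which 21 of the 28 genes tested were not called on day 1 against day 0.

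Of 9 genes better known from immune and blood cells, 6 were lower on day 3 than on day 0, against 26.3% over all genes tested, and 3 did not pass. Itgam, the CD11b integrin subunit of myeloid cells, was at 5.98 and 7.80 CPM on day 0, 25.8 and 21 on day 1, 2.23 and 1.85 on day 2, and 0.566 and 0.975 on day 3. By counts it fell by 1.75 ± 0.32 on day 2 (adjusted p = 0.00252) and by 3.15 ± 0.34 on day 3 (adjusted p = 9.52e-05). The deposited FPKM of Itgam did not follow. It was 4.09 and 2.80 on day 0, 5.91 and 7.10 on day 1 and 2.98 and 2.86 on day 3. The limma test on log2(FPKM + 1) gave an adjusted p of 0.503 for day 3 against day 0. The ratio of FPKM to CPM of Itgam spanned 4.5 log2 units over the 8 libraries, against a median of 0.52 over the set, and its gene model overlaps Gm49368 on the same strand. Cd34, a sialomucin of blood stem cells and vessels, was at 4.28 and 5.14 CPM on day 0, 12.1 and 10.7 on day 1, 3.20 and 2.69 on day 2, and 0.755 and 0.683 on day 3. It fell by 2.70 ± 0.31 (adjusted p = 0.000125).

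H2-Q2, a class I histocompatibility gene whose reads may be shared with its near-identical relatives, was at 0.748 and 0.857 CPM on day 0 and 4.19 and 4.0 on day 1. Slfn5, a Schlafen family gene induced by interferon, was at 1.33 and 0.728 CPM on day 0, 5.85 and 4.16 on day 1, and 0.252 and 0.163 on day 3. Slfn5 passed the test on day 3 (-2.29 ± 0.56, adjusted p = 0.00735), though not without replicate 2 of day 3 (0.0518), and H2-Q2 did not pass (-1.46 ± 0.60, adjusted p = 0.0665). Prss16, a thymus protease, fell from 2.41 and 2.96 CPM on day 0 to 0.283 and 0.358 on day 3 after 7.0 and 6.91 on day 1. Tlr3, the receptor for double-stranded RNA, was at 1.84 and 1.88 CPM on day 0, 4.26 and 3.75 on day 1 and 0.929 and 0.836 on day 2, and Rassf5, a Ras effector of lymphocytes, at 1.26 and 1.8, 5.38 and 4.50, and 0.818 and 0.727 CPM. In both genes the day 2 values lie below the day 0 values without passing the test. Ccdc88b, a microtubule-binding protein of T cells, differed most between the day 1 libraries, at 5.59 and 10.3 CPM. Its lower call on day 3 (adjusted p = 0.0239) was lost without replicate 1 of day 0 (0.109), replicate 1 of day 3 (0.0874) or replicate 2 of day 3 (0.112).

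The summed level of 9 markers of blood and endothelium was lower on day 1 than on day 0. It was 60.3 and 72.5 CPM on day 0, 35.3 and 40.3 on day 1, 15.3 and 15.6 on day 2, and 29.4 and 23.7 on day 3. Of 7 tested, 2 were called lower on day 1 than on day 0, as were 8.91% of all genes. In 2 of the 9 the highest mean was on day 1, a share that was not worked out over all genes. Ptprc, the CD45 gene that defines white blood cells, was at 0 and 0.0938 CPM on day 1, and the globin gene Hba-a1 at 0 and 0.0625 CPM, all at or under the floor of 3 counts. Both were picked from the list, and nearly all of its summed level on day 1 came from its other genes. The part of blood cells in these values was not tested.

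Among 12 genes of receptors, channels, adhesion and signalling, 4 were lower on day 3 than on day 0 and 8 did not pass, a share near the 26.3% called lower over all genes. Gabrp encodes the pi subunit of GABA-A receptors and shared the highest ratio of day 1 to day 0, 13.6, with Rbm11. It was at 0.136 and 0.514 CPM on day 0, 4.47 and 4.38 on day 1, 1.34 and 1.02 on day 2, and 0.346 and 0.0975 on day 3. Day 2 was thus still above day 0 (1.90 ± 0.65, adjusted p = 0.0430), a call that was lost without replicate 1 of day 0 (0.176), replicate 1 of day 2 (0.170) or replicate 2 of day 2 (0.0906). Gpr157, a G protein-coupled receptor, took another course: 2.72 and 2.1 CPM on day 0, 11.7 and 14.3 on day 1, 2.64 and 3.02 on day 2, and 3.02 and 3.06 on day 3. It settled near the day 0 level, and neither day 2 (0.23 ± 0.29, adjusted p = 0.550) nor day 3 (0.34 ± 0.29, adjusted p = 0.349) passed the test. Rapgef5, an activator of the GTPase Rap, was at 16.4 and 19.6 CPM on day 0, 42.2 and 39.3 on day 1, 13.5 and 15.3 on day 2, and 4.72 and 8.39 on day 3, a fall of 1.45 ± 0.28 (adjusted p = 0.00232). Nos1, the neuronal nitric oxide synthase, went from 15.2 and 16.0 CPM on day 0 to 32.6 and 30.1 on day 1 and 6.57 and 8.65 on day 3 (adjusted p = 0.00712, and 0.0638 without replicate 1 of day 3).

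Hpcal4, a calcium sensor of the visinin family, was lower at both later days, with 2.07 and 1.76 CPM on day 0, 6.31 and 5.5 on day 1, 0.595 and 0.982 on day 2, and 1.01 and 0.488 on day 3. Its day 2 call (adjusted p = 0.0456) was lost without any of the 6 libraries of days 0, 1 and 2 (0.0530 to 0.25), and its day 3 call (0.0279) without replicate 1 of day 0 (0.0859) or replicate 2 of day 3 (0.145). Grb14, an adaptor that restrains the insulin receptor, was at 1.8 and 1.5 CPM on day 0, 8.33 and 6.66 on day 1, 2.94 and 3.13 on day 2 and 2.36 and 2.93 on day 3. The 4 values of days 2 and 3 exceeded both day 0 values, but the differences did not pass on day 2 (0.88 ± 0.31, adjusted p = 0.0502) or day 3 (0.68 ± 0.31, adjusted p = 0.0945). Chn2, which inactivates the GTPase Rac, was at 8.87 and 6.98 CPM on day 0, 20.8 and 21 on day 1, 9.74 and 8.76 on day 2, and 8.08 and 8.39 on day 3. Pcdh19, a protocadherin of neural adhesion, went from 3.94 and 4.97 CPM on day 0 to 14.1 and 13.3 on day 1 and back to 4.25 and 3.84 on day 3. The remaining genes of this kind are Gpr155, Tmc3, Ptpn20 and Stap2, whose day 1 means ran from 4.27 to 15.7 CPM. Of these Stap2 was called lower on day 3 (adjusted p = 0.0115; 0.0659 without replicate 1 of day 0 and 0.0626 without replicate 2 of day 3).

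The 3 ubiquitin ligase genes left the peak in 3 ways. Fbxo32 encodes atrogin-1, the F-box protein of muscle wasting, and had the largest rise of the set from day 0 to day 3. It was at 3.06 and 4.37 CPM on day 0, 43.3 and 33.2 on day 1, 6.54 and 15.4 on day 2, and 8.40 and 10.9 on day 3. It was higher than on day 0 both on day 2 (1.57 ± 0.40, adjusted p = 0.0133) and on day 3 (1.39 ± 0.40, adjusted p = 0.0165). Without replicate 1 of day 0 neither call held (adjusted p = 0.0586 and 0.0788), and the same was true without replicate 2 of day 2 for day 2 (0.143) and without replicate 2 of day 3 for day 3 (0.0876). Fbxo27, an F-box protein that recognises glycoproteins, did the reverse, with 8.77 and 9.94 CPM on day 0, 21.9 and 21.8 on day 1, 4.42 and 4.73 on day 2, and 3.49 and 3.38 on day 3. Fbxo27 fell by 1.03 ± 0.23 on day 2 (adjusted p = 0.00683; 0.0687 and 0.0588 without day 2 replicates 1 and 2) and by 1.44 ± 0.23 on day 3 (adjusted p = 0.000810). Herc3, a HECT-type ligase, went from 24.4 and 33.8 CPM to 70.0 and 58.6 on day 1 and returned to 22.5 and 24.5 on day 2 and 18.4 and 22.5 on day 3, with no call against day 0.

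In the cytoskeleton group, Pls1 and Agbl2 also parted. Pls1, the actin bundler plastin 1 of microvilli, was at 15.8 and 23.3 CPM on day 0, 52.8 and 39.3 on day 1, 4.87 and 6.73 on day 2, and 2.70 and 3.06 on day 3. It fell by 1.75 ± 0.29 on day 2 (adjusted p = 0.00142) and by 2.76 ± 0.30 on day 3 (adjusted p = 9.01e-05), and both calls remained under every alternative setting in which it was tested. Agbl2, a carboxypeptidase that acts on tubulin, was at 1.05 and 0.728 CPM on day 0, 4.73 and 4.41 on day 1, 1.38 and 2.15 on day 2, and 2.14 and 1.89 on day 3. Its later values all exceeded both day 0 values, and it was called higher on day 3 (1.17 ± 0.39, adjusted p = 0.0292) but not without replicate 2 of day 0 (0.132), replicate 1 of day 3 (0.106) or replicate 2 of day 3 (0.0572). The deposited FPKM of Agbl2 did not show the rise, with 0.289 and 0.629 on day 0 and 0.538 and 0.412 on day 3, and limma on log2(FPKM + 1) without a filter gave an adjusted p of 0.962. Tchh, trichohyalin of the hair follicle, returned to 1.23 and 2.15 CPM on day 3 from 5.52 and 4.25 on day 1, with 2.07 and 1.58 on day 0.

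Regulators of transcription and RNA made up a small part of the set. Bhlha15, the transcription factor Mist1 of secretory cells, was at 3.33 and 2.06 CPM on day 0, 8.80 and 8.25 on day 1, 1.23 and 2.44 on day 2, and 0.598 and 0.845 on day 3. This is a fall of 1.90 ± 0.44 (adjusted p = 0.00590; 0.0536 without replicate 1 of day 3). Gm10567 is listed in RefSeq as Tcf24, a basic helix-loop-helix gene, at chr1:9960163-9967981. It went from 3.30 and 2.83 CPM on day 0 to 12.6 and 8.35 on day 1 and 0.692 and 1.27 on day 3 (adjusted p = 0.00976; 0.0781 without replicate 1 of day 3). Rbm11, an RNA-binding splicing regulator, was at 0.374 and 0.343 CPM on day 0, 5.23 and 4.50 on day 1, 0.892 and 1.60 on day 2, and 0.849 and 0.748 on day 3. All 4 later values of Rbm11 lay above both stem cell values. The difference passed on day 2 (1.79 ± 0.45, adjusted p = 0.0127; 0.0566 without replicate 2 of day 0 and 0.125 without replicate 2 of day 2) and not on day 3 (1.15 ± 0.46, adjusted p = 0.0612).

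**Figure D3:**
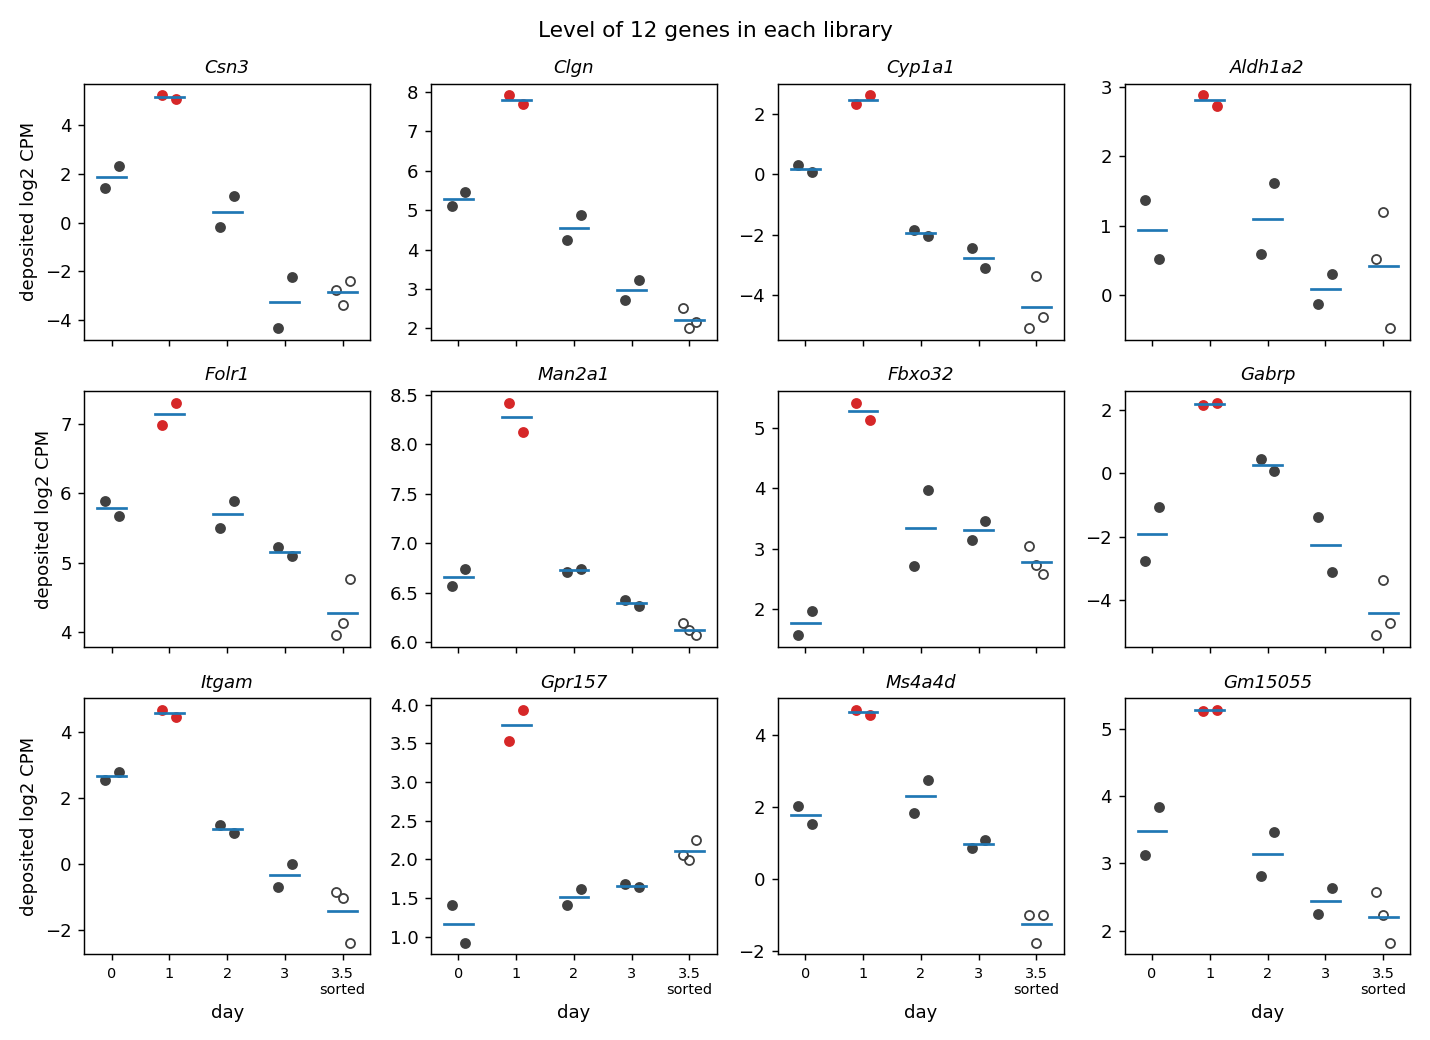
Deposited log2 CPM of 12 of the genes in each library (points) with the mean of each day (blue lines); day 1 is red and the sorted day 3.5 libraries are open circles, and each panel has its own y axis. Cyp1a1, Csn3, Clgn and Itgam went below day 0 after the peak, Man2a1 and Gpr157 returned near it, and Fbxo32 stayed above it.

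Of 8 noncoding and predicted genes, 7 were lower on day 3 than on day 0, with 26.3% of all genes tested called lower. Among them the call of Gm10768 (adjusted p = 0.0124) was lost without replicate 2 of day 0 (0.0565) and without replicate 1 of day 3 (0.0628). Gm15055 is named Halr1 in RefSeq, a long noncoding RNA at chr6:52102949-52113684. It was at 9.04 and 16.0 CPM on day 0, 38.9 and 36.6 on day 1, 6.99 and 10.9 on day 2, and 4.47 and 6.11 on day 3. The day 1 libraries agree closely, while the day 0 libraries differ, and the lower call on day 3 (-1.24 ± 0.34, adjusted p = 0.0125) was lost without replicate 2 of day 0 (0.0911) and without replicate 1 of day 3 (0.101). On FPKM, with 103 on day 1, Gm15055 ranked next after Folr1.

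Gm14569, a protein-coding gene of the X chromosome, was at 3.16 and 3.26 CPM on day 0, 17.5 and 12.9 on day 1, 1.45 and 0.800 on day 2, and 0.0944 and 0.163 on day 3, a fall of 4.60 ± 0.48 (adjusted p = 7.33e-05). Its day 3 values rest on 3 and 5 counts. Gm44, also on the X, was at 1.46 and 1.71 CPM on day 0, 6.03 and 4.03 on day 1 and 0.0629 and 0.0650 on day 3, where both libraries were at or under 3 counts. Gm44 fell by 4.53 ± 0.55 on day 3 (adjusted p = 0.000176) and by 1.77 ± 0.43 on day 2 (0.0101; 0.0894 without replicate 1 of day 2). AU015836, another X-linked gene, was the 1 member called in opposite directions. It was at 4.08 and 6.34 CPM on day 0, 30.2 and 23.9 on day 1, 8.22 and 10.9 on day 2, and 2.45 and 3.19 on day 3. It was above day 0 on day 2 (0.89 ± 0.30, adjusted p = 0.0427) and below it on day 3 (-0.88 ± 0.31, adjusted p = 0.0392). The day 2 call of AU015836 was lost without replicate 1 of day 0 (0.179), either day 2 library (0.0749 and 0.253) or either day 3 library (0.0543 and 0.0551). Its day 3 call was lost without replicate 2 of day 0 (0.236) or either library of day 2 (0.0553 and 0.0572) or day 3 (0.201 and 0.0641). The noncoding 4933427D06Rik fell by 2.38 ± 0.32 by day 3 (adjusted p = 0.000277), and Gm12463, a processed pseudogene whose reads may belong to its parent gene, by 2.08 ± 0.46 (adjusted p = 0.00432). Gm16201 did not pass.

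The 7 remaining protein-coding genes were Mall, Tmem229b, Ankrd34b, Ccdc171, Rundc3b, Strip2 and Susd5, with day 1 means from 3.92 to 25.9 CPM. Ankrd34b went from 0.986 and 1.07 CPM on day 0 to 4.47 and 4.53 on day 1 and 0.315 and 0.293 on day 3, and fell by 1.74 ± 0.45 (adjusted p = 0.0103). Mall, a membrane protein of lipid rafts, fell by 1.61 ± 0.49 by day 3 (adjusted p = 0.0209; 0.115 without replicate 2 of day 0 and 0.111 without replicate 2 of day 3). Strip2, a subunit of the STRIPAK phosphatase complex, fell by 1.34 ± 0.48 (adjusted p = 0.0394). The call was lost without either day 0 library (0.0764 and 0.0879), either day 2 library (0.0561 and 0.0555) or replicate 1 of day 3 (0.202). Tmem229b, a membrane protein, came back to its starting level, with 6.05 and 6.55 CPM on day 0, 25.4 and 26.4 on day 1 and 6.07 and 6.27 on day 3 (-0.02 ± 0.24, adjusted p = 0.942).

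The sorted day 3.5 libraries took no part in the choice of the genes. In 52 of the 56 genes the highest day 3.5 value lay at least 1 log2 unit below the lower day 1 value, against 12.6% of all 17006 genes tested; the day 1 side of this gap was chosen to be high. The gap ran from 0.517 to 7.46 log2 units with a median of 3.33, and the genes with less than 1 were Chn2 (0.52), Rundc3b (0.68), Gpr155 (0.79) and Agbl2 (0.98). Csn3, with the widest gap, was at 0.12, 0.0649 and 0.147 CPM, and in 8 genes all 3 sorted libraries were at or under 3 counts (Csn3, Gm14569, Cyp1a1, Slfn5, Gabrp, Mall, Asz1 and Gm44). Chn2, with the narrowest gap, was at 14.7, 10.4 and 8.83 CPM in the sorted libraries. In bulk samples fewer cells of a type and less RNA per cell cannot be told apart.

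Against day 3, whose values the rule had capped, 7 of the 56 genes were lower in the sorted libraries (2.93% of all genes tested were called lower) and 49 did not pass. None was higher (0.435% of all genes) in edgeR or DESeq2. At an unadjusted p of 0.05 in edgeR, 0 were higher and 19 lower. The share of all genes at that unadjusted p was not worked out, so nothing is read from these counts. The 3 sorted values lay above both day 3 values in 2 of the 56 genes, against 2439 of all 17006, and below both in 28, against 3254 of all. The median log2 fold change was -0.67, against -0.01 over all genes tested. The sort, the library identifiers, which belong to another series than those of days 0 to 3, and the lower depth all move with this comparison and cannot be told apart. Ms4a4d, a membrane protein of the CD20 family, was at 1.70 and 2.05 CPM on day 3 and at 0.478, 0.259 and 0.441 in the sorted libraries, after 4.15 and 3.21 on day 0 and 26.0 and 22.2 on day 1. It fell by 2.24 ± 0.39 (adjusted p = 0.00968; 0.0541 without replicate 2 of day 3.5). Stap2, a signalling adaptor, was at 3.27 and 2.93 CPM on day 3 and at 1.32, 1.04 and 0.956 after the sort (-1.48 ± 0.26, adjusted p = 0.0107). AU015836 went from 2.45 and 3.19 to 0.837, 0.908 and 1.03 CPM (-1.61 ± 0.30, adjusted p = 0.0145), and Fbxo27 from 3.49 and 3.38 to 1.08, 1.43 and 1.84 CPM (-1.26 ± 0.24, adjusted p = 0.0174). Gm10567, Nos1 and 4933427D06Rik were the other 3, with log2 fold changes from -2.65 to -1.06. All 7 had also been called lower on day 3 than on day 0 in the fit of days 0 to 3, and both comparisons use the day 3 libraries. The day 3 call of Ms4a4d (adjusted p = 0.0378) was lost without replicate 1 of day 0 (0.144), either day 3 library (0.177 and 0.0831) and with the GC trend offset (0.0763). None of these 7 calls remained throughout when each library was left out in turn. Of the 7, 0 remained without replicate 2 of day 3.5, 2 without replicate 1 and 4 without replicate 3 of it, 3 without replicate 1 of day 3 and 2 without replicate 2 of day 3.

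**Figure D4:**
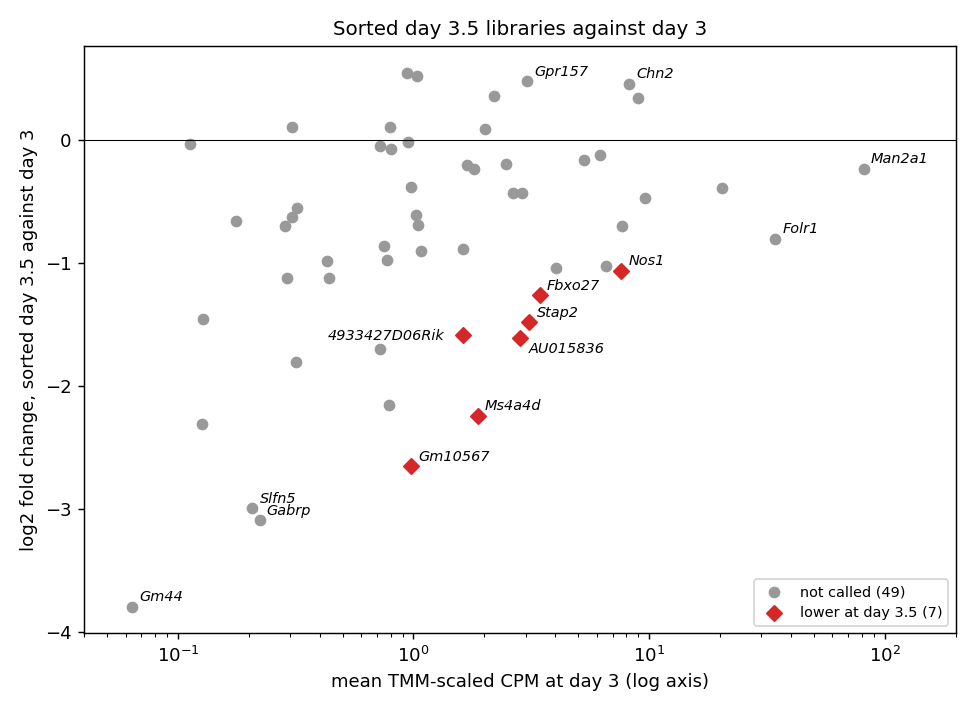
Log2 fold change of the sorted day 3.5 libraries against day 3 from edgeR (y axis) over the mean CPM on day 3 (x axis, log scale) for the 56 genes. The 7 genes called lower are red diamonds and the 49 others grey; most points lie below 0.

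Of 331 genes on 23 lists of pathways and cell types found in the tables, 1 was a member, Aldh1a2. The set itself is 56 of the 16810 genes tested, and the rule had set aside retinoic acid targets by name, among them Cyp26a1, Hoxb1 and Stra8, so the number of retinoic acid genes in it is partly fixed by the choice. Of 20 retinoic acid genes tested, 13 were higher (12.0% of all genes) and 2 lower (8.91%) on day 1 than on day 0. In 7 of 21 the highest mean was on day 1. For this and the next lists, the share of all genes with the highest mean on day 1 was not worked out. Dhrs3, which turns retinaldehyde back into retinol, came closest among the others with a margin of 0.62. It was at 7.14 and 4.58 CPM on day 0, 57.2 and 71.4 on day 1 and 9.07 and 36.2 on day 2, so that replicate 2 of day 2 kept it out. Crabp2, which carries retinoic acid to its receptors, had its highest values on day 2, 575 and 696 CPM, after 389 and 387 on day 1. Of 13 Hedgehog genes tested, 6 were higher on day 1 than on day 0 (12.0% of all genes), and 0 of the 13 had their highest mean there. Of 10 genes of the 2-cell-like state found in the tables, 7 had their highest mean on day 1. On day 1, 0 of the 9 tested were called against day 0. The summed level of the 10 was 50.4 and 48.7 CPM on day 0 and 58.9 and 55.6 on day 1. All 9 tested were lower on day 3 than on day 0, as were 26.3% of all genes. Of 11 cholesterol synthesis genes, 10 were higher on day 1 than on day 0 (12.0% of all genes) and 10 were higher on day 3 (27.6%).

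In position and sequence the genes were compared with all genes tested, as a description. Among 53 genes matched by symbol to GENCODE M21, 50 were protein coding (94.3%, against 88.6% of the matched genes tested), and 6 lay on chromosome 6 (11.3% against 4.81%). None of the 53 lay next to another of them; Gm10768, which was matched in RefSeq, adjoins Abcc2. Of 106 genes next to a member, 2 (1.89%) were called higher on day 1 and lower on day 2, Folr2 beside Folr1 and Ahcyl2 beside Strip2, against 239 of all 16810 genes (1.42%). The longest transcript had a median GC content of 47.1% in the set and 49.7% over all genes tested, and a median length of 3680 bases against 3150.

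RefSeq windows from 250 bases before to 50 bases after a start site were found for 48 of the 56 genes. The median ratio of observed to expected CpG was 0.482, against 0.731 in 11098 genes tested, and 21 genes (43.8%) had a ratio below 0.4, against 15.9%. The AGGTCA motif was found on either strand in 15 genes (31.2%), against 14.9% of the genes tested and 18.1% of all 27025 genes with a window, and a gene with several start sites had more windows to match. AGATAA was found in 11 genes (22.9%, against 7.90% of the genes tested and 12.7% of all), and CCAAT in 20 (41.7%, against 43.0% and 41.1%). GGGCGG, the motif of SP factors, was in 26 genes (54.2%, against 67.5% and 38.2%), and TATAAA in 5 (10.4%, against 9.08% and 15.7%). Cyp1a1 has TATAAA from 30 to 25 bases before its start, as its sequence above shows, and Fbxo27 has AGGTCA from 95 to 90 bases before its start. Aldh1a2 shares the octamer with Hpcal4, the 2 genes that hold it (4.17%, against 1.69% and 1.97%), while the stretch shown for Gm15055 holds none of the marked motifs. The DR2 arrangement of retinoic acid response elements, 2 motifs with a spacer of 2 bases, was matched in Stap2 alone (2.08%, against 0.0991% and 0.311%). It lies on the opposite strand, from 9 to 22 bases after the RefSeq start site of the window chr17:56008087-56008386 (minus strand). Another window of Stap2, chr17:56005557-56005856, covers the GENCODE start of the gene and held no DR2 match.
Stap2 match: TGAACTCCTGACCT
The same repeats with a spacer of 5 bases (DR5) or 1 base (DR1) had no match in the windows of the set, and were in 0.0631% and 0.297% of the genes tested. A match is a run of letters and not a measured binding site.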

How the data were processed

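RNA of 11 libraries was sequenced. The authors made the files with HTSeq 0.6.1, TopHat2 2.0.4, limma, Cufflinks 2.1.1, bcl2fastq 1.8.3 and CASAVA, on builds GRCm38 and mm10, per the submitters' processing notes as listed for this work, without roles. The deposited counts were taken for expected counts, since 104 genes hold fractions, and were rounded. The deposited log2 values are log2 CPM, recomputed from the counts to within 5.15e-14 and not TMM-scaled; they chose the genes. The deposited FPKM served for levels between genes.

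Genes were filtered (filterByExpr, minimum count 10), scaled by TMM and tested with edgeR 4.0.16 (R 4.3.3) by the quasi-likelihood F test, two-sided, with Benjamini-Hochberg adjustment over all genes tested at 0.05. Days 0 to 3 were fitted together (8 libraries, 16810 genes), and day 3.5 against day 3 with all 11 (17006 genes). The first fit leaves the sorted libraries out. The alternatives used DESeq2 1.42.0 and limma 3.58.1, and the test was run on simulated data first. Totals per library set the precision of low values. Every value column matched a sample. In the main fits the replicate numbers were not used to pair the samples.

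The members and lists were chosen with earlier results of these data known. The naming rule took the 20 widest margins with gene symbols, list genes, the 10 highest FPKM on day 1, the 5 smallest p per direction and comparison, the 3 genes on each side of each threshold, and promoters with DR2 or DR5. Annotation came from GENCODE M21 and promoters from RefSeq (GRCm38.p6). Sequences for 8 genes were not used here. The values of 1 gene are not reported here.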

Additional observations from a re-analysis of the deposited data

How the results depend on the processing

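No higher or lower call of the named genes followed here changed direction under the alternatives. For results not called in the main fit, direction was not checked. Of 2123 values of these genes, 1918 kept their side of the threshold, 177 no longer passed and 28 newly passed. The 1918 include results that were called in neither fit. Over the whole set, 12 of 33 lower and 0 of 2 higher calls on day 3 remained under every alternative. On day 2 it was 1 of 11 lower and 0 of 4 higher calls, and on day 3.5 it was 0 of 7 lower calls. The rule gave 47 genes on TMM-scaled log2 CPM, 17 on log2(FPKM + 1), 5 with a margin of 2, 109 with a day 1 mean of at least 0, and 56 to 101 with each library left out; of the last 4, 17, 5, 103 and 52 to 96 lay 1 log2 unit below day 1 in every day 3.5 library. For day 2 against day 0, the higher calls numbered 1 on log2(FPKM + 1) with or without the filter, 2 with a replicate block and 0 to 4 with each library left out. The lower calls there numbered 18 with the GC trend offset (chosen after seeing the data), 4 on each of the 3 FPKM settings and 4 to 12 with each library left out. For day 2 against day 1, lower calls numbered 36 on log2(FPKM + 0.1) and 24 to 56 with each library left out. For day 3 against day 0, higher calls numbered 4 with the GC trend offset, 4 on the deposited voom values, 1 on log2(FPKM + 1), 0 on it without the filter, 1 with the 2 groups alone and 0 to 2 with each library left out; lower calls numbered 18 on log2(FPKM + 0.1), 13 on log2(FPKM + 1), 14 without the filter and 24 to 34 with each library left out. For day 3.5 against day 3, lower calls numbered 11 with the GC trend offset, 12 with no filter on low counts, 2 on log2(FPKM + 1) with or without the filter, 3 with the 2 groups alone, 2 with the replicate block and 0 to 8 with each library left out. The FPKM filter tested 46 of the 56 genes; otherwise the cause was not tested. Libraries with the same replicate number did not deviate together (r from -0.348 to 0.136). With 2 libraries per day, and GC trends that differ between them, this check cannot exclude that the numbers pair the samples. Values at or under 3 counts limit the genes lost by day 3.5.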
